A study of Caenorhabditis elegans with 4 samples.

Results

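The regions described here are those that lie on chromosome V, the longest chromosome of Caenorhabditis elegans, in ChIP-seq of the transcription factor NHR-67. They were taken by chromosome name alone, which used no measured value, from 3 lists of called regions on genome build WormBase WS220. Chromosome V held 13 of the 113 regions of the combined list, 5775 of the 30000 regions of ChIP replicate 1 and 3440 of the 18783 regions of ChIP replicate 2. Chromosomes I to IV, the other 4 autosomes, were the comparison and held 74, 19224 and 11966 regions of these lists.

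NHR-67 is a nuclear receptor of the tailless/TLX family. Such factors bind DNA through a zinc-finger domain, and members of this family are best known as repressors and as regulators of neural and epithelial cell fate. In the worm, NHR-67 acts in the uterine anchor cell, where it holds the cell in cell-cycle arrest and is needed for its invasion through the basement membranes during the L3 larval stage. ChIP-seq places a tagged protein on the genome by sequencing the DNA fragments that an antibody pulls down with it. A called region is a place where such fragments pile up, and it names neither the gene that is regulated nor the cell in which the factor was bound.

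All 4 samples came from hermaphrodites of strain OP373 at L3, grown at 20 °C. The strain is unc119(ed3) and carries wgIs373, an nhr-67 transgene with TY1, EGFP and FLAG tags and an unc119 rescue, so the mapped protein is a tagged transgene product in whole larvae. The 2 ChIP samples used an antibody against GFP, and 2 input samples of unprecipitated chromatin share their genotype and stage. The inputs were not analysed here. Nothing in the labels says that replicates were separate cultures, so the spread between them may be technical. The lists give no read counts and the depth is unknown.

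The combined list placed 13 regions of 590 bp on V, of which 6 lay in the central part of the chromosome, 4 in the right and 3 in the left. The parts are of equal length and divide the span of V, the 20.9 Mb that all called regions take up from 4653 to 20919660, with borders at 6976322 and 13947991. On I to IV the 74 combined regions were split as 28 in the centre, 21 in the right and 25 in the left. At 13 regions V carried 0.622 combined regions per Mb, against 1.20 per Mb on I to IV, where single chromosomes ran from 0.401 on IV to 2.03 on III. V therefore sat inside the range of the other autosomes. It held 14.9% of the 87 autosomal combined regions (95% exact interval 8.20 to 24.2), against 25.4% of the autosomal span. The interval ends below the span share. It includes that share when the combined list is replaced by as many best regions of replicate 1 (17.4% on V, upper limit 27.1%) or of replicate 2 (17.7%, upper limit 27.9%). It also does so when the list is cut to the 50% with the lowest numbers (upper limit 27.5%). There V held 4 of 34 regions (11.8%), a lower share with a wider interval.

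Regions are ordered here by the number that each carries in its deposited name, since every combined region has the same score of 2.82. In the replicate lists the number runs nearly from the highest score to the lowest (Spearman's rho across regions of V -0.999997 in replicate 1 and -0.99974 in replicate 2). Many regions tie at a maximum score, the ceiling, of 2.91 in replicate 1 and 3.53 in replicate 2, and the number alone orders these. A combined region was found in a replicate, and a replicate region was shared, when it overlapped a region of the other list by at least 50% of the shorter one. Combined numbers on V ran from 27 to 112 with a median of 64, against a median of 66.5 on I to IV. What the number orders in the combined list is not stated, so a low combined number need not mean a stronger region.

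The 13 combined regions are given by their standing in the replicates. All 13 were found in replicate 1, as were all 74 on I to IV. The combined list holds called regions of these same ChIP samples, so its places in their lists are a description. The first group had a ceiling score in both replicates. Region 27, at V:10897086-10897675, carried number 82 in replicate 1 and 62 in replicate 2. Region 44, 89 kb to its left at V:10807794-10808383, carried number 75 in replicate 1 and 142 in replicate 2. Region 36, at V:8500291-8500880, carried number 81 in replicate 1 and 263 in replicate 2. All of these lie in the central part of V. Region 61, at V:18967544-18968133, carried number 110 in replicate 1 and 267 in replicate 2. Region 105, at V:726240-726829, carried number 76 in replicate 1 and 61 in replicate 2, although its combined number is among the highest on V. These 5 were the only combined regions of V at the ceiling in both lists.

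A further 5 combined regions were present in both replicates with unequal standing. Region 55, at V:9546695-9547284, reached the ceiling in replicate 1 as number 219 but scored 2.41 as number 2956 in replicate 2. Region 109, at V:13961849-13962438, scored 2.09 as number 435 in replicate 1 and reached the ceiling as number 222 in replicate 2. It lies just right of the border between the central and the right part. Region 112, at V:19049258-19049847, scored 1.95 as number 584 in replicate 1 and was at the ceiling as number 1154 in replicate 2. Region 64, at V:12743833-12744422, was below the ceiling in both, with its best scores 1.87 (number 626) in replicate 1 and 2.28 (number 3339) in replicate 2. Region 101, at V:13654657-13655246, showed the widest gap between the replicates, with a score of 0.708 (number 4192) in replicate 1 and the ceiling (number 73) in replicate 2. Those replicate regions both met region 101. They also overlapped each other, but by just under 50% of the shorter one, so they did not count as shared.

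The remaining 3 combined regions were found in replicate 1 alone. Region 59, at V:727535-728124, contains the first-ranked region of V in replicate 1, number 59, and the nearest midpoint in replicate 2 was 1141 bp away. Region 102, at V:18723647-18724236, contains the next-ranked, number 62, with the nearest replicate 2 midpoint at 1410 bp. Region 108, at V:5533384-5533973, was number 115 in replicate 1 and had no midpoint of replicate 2 within 7328 bp. Each was at the ceiling in replicate 1. Thus 10 of the 13 (76.9%, 95% exact interval 46.2 to 94.96) were found in replicate 2, against 69 of 74 on I to IV (93.2%). No test was run on this difference. The median distance between a combined midpoint and that of its best-numbered replicate region was 48 bp in replicate 1 and 10 bp in replicate 2.

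**Figure D1:**
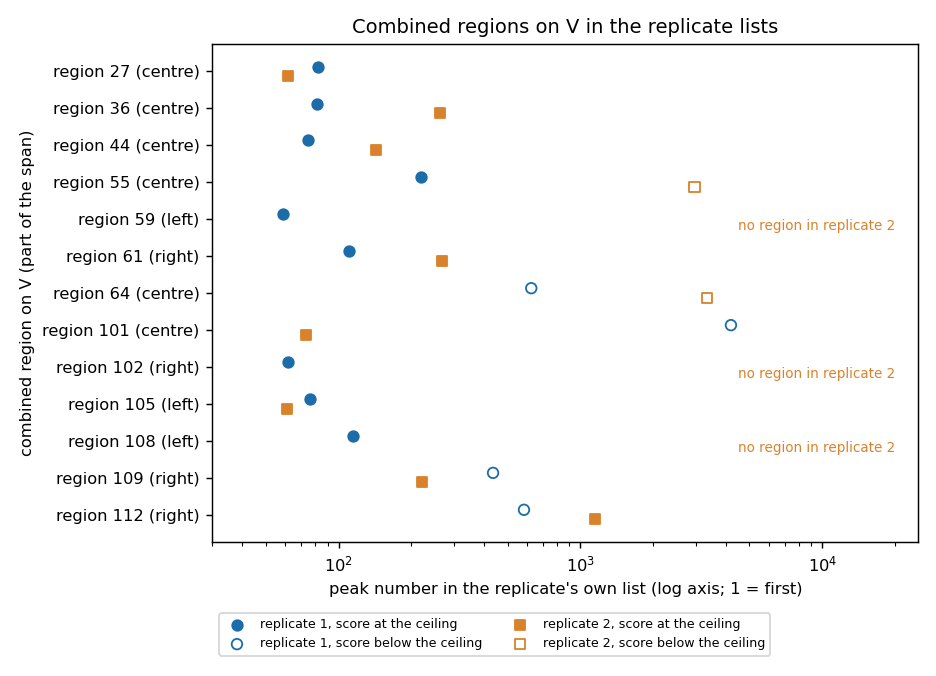
Peak number of each combined region of chromosome V in ChIP replicate 1 (circles) and ChIP replicate 2 (squares), on a log axis, with regions ordered by combined number from top to bottom. Filled marks are at the score ceiling of their list, open marks are below it, and where several replicate regions matched the lowest number is drawn. In 5 of the 13 regions both marks are filled, and in 3 replicate 2 has no region.

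The best regions of V in each replicate overlapped only in part, as did those of I to IV. Among the 100 best nuclear regions, 63.9% of those on I to IV were shared in replicate 1 and 64.9% in replicate 2. In replicate 1 the 5 lowest numbers on V were 59, 62, 65, 75 and 76. Number 65, at V:12303407-12303810, was in neither the combined list nor replicate 2, whose nearest midpoint was 3243 bp off with a score of 0.497. The other 4 were in the combined list, as regions 59, 102, 44 and 105. In replicate 2 the 5 lowest numbers were 44, 61, 62, 73 and 76, of which 61 and 62 were shared. Number 73 met the combined list in region 101, while 44 and 76 did not meet it.

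At 3 places on V, each holding at least a single best region named above, several ceiling regions lay close together. At the left end, replicate 2 number 44, at V:723939-724418, and replicate 1 number 122, at V:724446-724849, both had ceiling scores and lay side by side without overlap. Combined regions 105 and 59 lie just to the right of them, at V:726240-726829 and V:727535-728124. Around region 101, near 13.7 Mb, replicate 2 had ceiling regions at V:13654875-13655354 (number 73), V:13655127-13655606 (number 76) and V:13656501-13656980 (number 350), whereas replicate 1 had a ceiling region only at the last of these sites, V:13656337-13656740 (number 284). Around region 102, near 18.7 Mb, replicate 1 had 5 ceiling regions within 25 kb and replicate 2 had 3, and a single pair of them met, replicate 1 number 305 with replicate 2 number 201. Each of the 3 places thus held a site where ceiling regions of both replicates met (region 105 at the left end), beside ceiling regions that did not meet.

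Regions at the ceiling in both replicates were also found outside the combined list. Matched one to one, replicate regions of V formed 597 pairs with a median midpoint distance of 113 bp, and in 13 pairs both scores were at the ceiling. Of these 13 pairs, 5 touched a combined region and 8 did not. By part of the chromosome, 6 lay in the centre, 5 in the right and 2 in the left. The 5 pairs outside the combined list whose worse number was lowest began with V:6224336-6224950 (numbers 151 and 178 in replicates 1 and 2) and V:7236936-7237475 (numbers 281 and 279). They went on with V:18718034-18718664 (305 and 201), V:15464831-15465310 (330 and 101) and V:13656337-13656980 (284 and 350). Each of these coordinates spans both replicate regions of the pair. V carried 0.622 such ceiling pairs per Mb, the lowest of the autosomes by a small margin, with IV at 0.631 and III highest at 1.45.

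Across the full lists, chromosome V had the lowest density of regions of the 5 autosomes in both replicates. Replicate 1 had 276 regions per Mb on V, against 312 on I to IV (single chromosomes 291 to 335), a ratio of 0.884. Replicate 2 had 164 per Mb on V, against 194 on I to IV (183 to 214), a ratio of 0.846. Merged where they overlap, the regions of replicate 1 covered 10.7% of the V span, against 12.1% of I to IV, and those of replicate 2 covered 7.46% of V, against 8.77% of I to IV. No test was run on the density, so it is given as a description with the spread between chromosomes.

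Along V the regions were spread nearly evenly, with no part taking much more than its length. In replicate 1 the left, central and right parts of V held 1960, 1839 and 1976 regions, or 281, 264 and 283 per Mb. In replicate 2 they held 1108, 1217 and 1115, or 159, 175 and 160 per Mb. The central part was thus the sparsest in replicate 1 and the densest in replicate 2. In replicate 1 31.8% of V regions (95% exact interval 30.6 to 33.1) were central, against 31.5% on I to IV, with 31.7% over all 6 nuclear chromosomes. The difference did not pass the threshold of 0.05 (Fisher's exact test, two-sided, Benjamini-Hochberg adjusted over 8 tests, p = 0.640). In replicate 2 the shares were 35.4% (33.8 to 37.0) on V, against 33.8% on I to IV, and 33.9% over all 6 (adjusted p = 0.121, Fisher's exact test). V lay within the range of the other autosomes in both replicates, from 30.4 to 33.9% and from 32.0 to 36.0%. Among the 5000 best regions of replicate 1 the central share of V was 36.6%, against 32.8% on I to IV, and passed (adjusted p = 0.0474, Fisher's exact test), while among its 1000 best it was 39.9% on V, against 33.5% on I to IV, and did not pass (adjusted p = 0.157, Fisher's exact test).

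In 10 equal bins along the span, numbered from the left, V lay below each of I to IV in 8 bins of replicate 1 and in 7 of replicate 2. Bin 2 was the sparsest of V in both, with 246 regions per Mb in replicate 1 and 127 in replicate 2, and bin 10 was the densest, with 323 and 193. Bin 2 contains the longest stretch of V without a region, described with the windows. Outside that stretch it had 275 regions per Mb in replicate 1 and 142 in replicate 2. Bin 9 held 263 per Mb in replicate 1 and 134 in replicate 2, where it was the next sparsest.

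**Figure D2:**
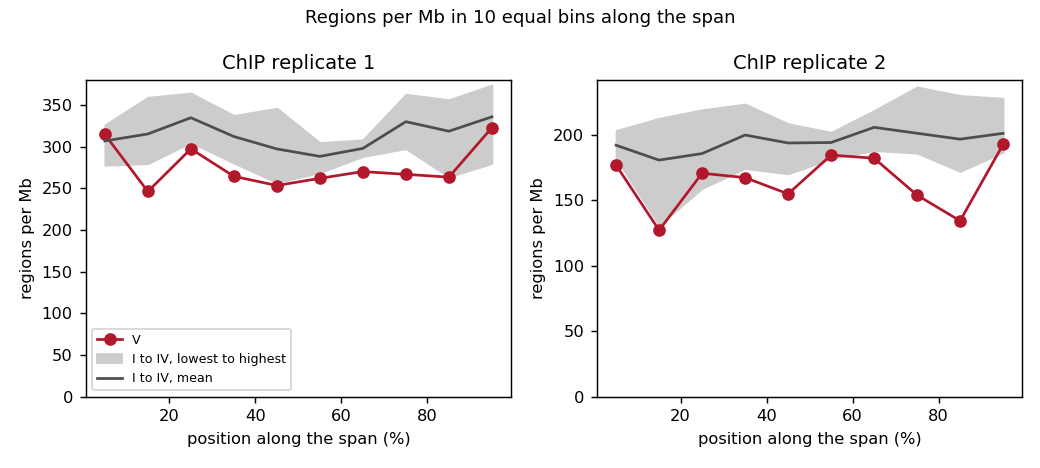
Regions per Mb in 10 equal bins along the span, for chromosome V (red) and for I to IV (grey line, mean of the 4 chromosomes; grey band, lowest to highest of them), in ChIP replicate 1 (left) and ChIP replicate 2 (right). The red line lies below the band in 8 bins of replicate 1 and 7 of replicate 2, and is lowest in bin 2 of both.

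Windows of 25 kb showed where V was dense and where it was empty. On V the 836 windows held 6.90 ± 3.30 regions in replicate 1 and 4.11 ± 2.40 in replicate 2 (mean ± SD over windows), against 7.81 ± 3.24 and 4.86 ± 2.60 in the 2460 windows of I to IV. The counts of the replicates were weakly related across windows (Spearman's rho 0.311 over the 836 windows of V, 0.297 to 0.373 on the single other autosomes). This rho is a description without a p, since neighbouring windows are not independent. The densest window, V:18704653-18729652 in the right part, had 24 regions in replicate 1 and 16 in replicate 2, and it contains combined region 102. Of its regions 6 in replicate 1 and 5 in replicate 2 were shared. The next, V:19629653-19654652, had 22 and 12 regions, and V:5729653-5754652 in the left part had 16 and 9. Neither of the last named windows held a combined region.

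Dense windows were slightly more frequent on V in replicate 1 and slightly less frequent in replicate 2, and neither difference was tested. With the limit set at the 99th percentile of I to IV, which is 16 regions in replicate 1 and 12 in replicate 2, 6 windows of V (0.718%) exceeded it in replicate 1, against 15 of I to IV (0.610%). In replicate 2 the limit was exceeded by 5 windows of V (0.598%), against 17 of I to IV (0.691%). A single window of V, the densest, exceeded both limits.

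Empty windows were more frequent on V in both replicates, and in replicate 1 most of them lay in a single place. In replicate 1 12 of 836 windows of V held no region (1.44%, 95% exact interval 0.744 to 2.49), against 10 of 2460 on I to IV (0.407%), with 0.649% over all 6 nuclear chromosomes (Fisher's exact test, adjusted p = 0.00758). In replicate 2 34 windows of V were empty (4.07%, 2.83 to 5.64), against 49 on I to IV (1.99%), with 2.57% over all 6 (Fisher's exact test, adjusted p = 0.00383). Windows of V also held fewer regions on average, 6.90 and 4.11 in replicates 1 and 2, against 7.81 and 4.86 on I to IV. The empty share is thus not separate from the lower density, and the part of the density in it was not tested. All 12 windows empty in replicate 1 were also empty in replicate 2, and 8 of them lay side by side within a single stretch. A further 22 windows of V were empty in replicate 2 only. The left, central and right parts held 9, 2 and 1 of the empty windows in replicate 1, and 11, 7 and 16 in replicate 2. When each run of neighbouring empty windows was counted once, an alternative chosen after seeing the data, V had 4 empty runs in replicate 1 and 22 in replicate 2. Neither share then passed, at 0.483% on V against 0.325% on I to IV in replicate 1 (Fisher's exact test, adjusted p = 0.585) and 2.67% on V against 1.87% in replicate 2 (Fisher's exact test, adjusted p = 0.203).

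The stretch in question ran from V:2344491 to V:2564185, 219.7 kb or 1.05% of the V span, without a region of either replicate at any score. The next longest on V was V:8808213-8898483 in the central part, 90.3 kb, followed by V:6153662-6184332 in the left part, 30.7 kb. On I to IV the longest such stretches were between 30.04 kb on I and 64.9 kb on IV. V had 7 stretches over 25 kb, which sum to 452.6 kb, against 2 to 4 on each of I to IV. Without all such stretches the density of V was 282 regions per Mb in replicate 1 and 168 in replicate 2, against 314 and 196 on I to IV, ratios of 0.898 and 0.859. The density of V was thus below that of I to IV outside the long empty stretches too. Input coverage in these stretches was not analysed here.

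**Figure D3:**
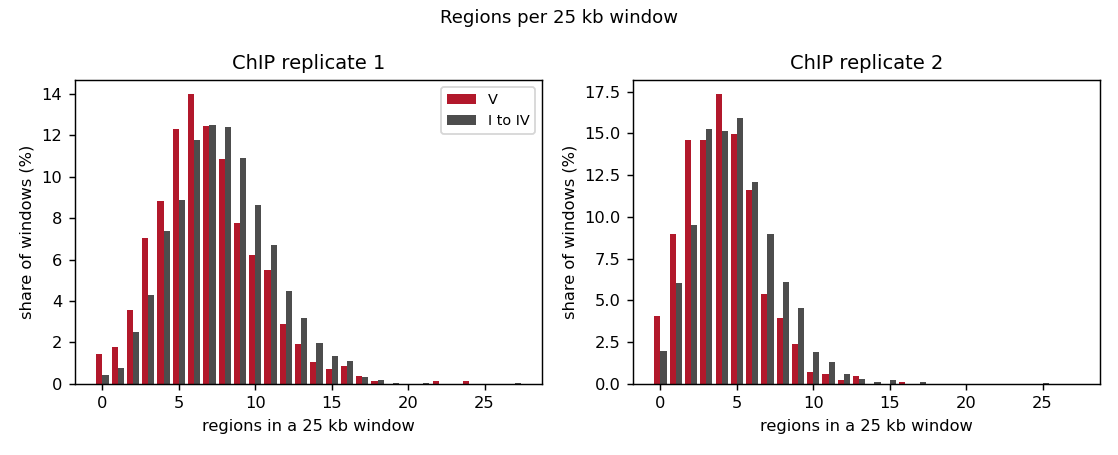
Share of 25 kb windows by the number of regions they hold, for chromosome V (red) and I to IV (grey), in ChIP replicate 1 (left) and ChIP replicate 2 (right). At 0 regions the red bars stand at 1.44% and 4.07%, against 0.407% and 1.99% for grey, and the red bars are shifted to lower counts.

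Regions of V were shared between the replicates less often than those of I to IV. In replicate 1 632 of 5775 regions on V (10.9%, 95% exact interval 10.1 to 11.8) met a region of replicate 2, against 2662 of 19224 on I to IV (13.8%, 13.4 to 14.3), with 13% over all 6 nuclear chromosomes (Fisher's exact test, adjusted p = 5.46e-08). In replicate 2 627 of 3440 regions on V (18.2%, 16.9 to 19.6) met a region of replicate 1, against 2643 of 11966 on I to IV (22.1%, 21.3 to 22.8), with 20.7% over all 6 (Fisher's exact test, adjusted p = 3.40e-06). V lay below each of the other autosomes, which ran from 12.99% on II to 14.8% on III in replicate 1 and from 19.9% on IV to 23.6% on I in replicate 2. Chromosome X had 12% in replicate 1 and 18.2% in replicate 2. The test treats regions as independent, which neighbouring regions are not, so its p is too small, and both values come from the same overlaps. With regions merged within 1000 bp the shares were 15.2% on V against 20.1% on I to IV in replicate 1, and 23.4% on V against 29.1% on I to IV in replicate 2, and both calls held. Merged loci that join more regions are wider and can be met more often, so this setting still depends on how regions cluster.

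V was lower than I to IV in density as well as in the shared share. The share of the span covered by replicate 2, which regions of replicate 1 can meet, was 0.850 times as large on V as on I to IV, and the share covered by replicate 1 was 0.888 times as large. The shared share of V was 0.790 times that of I to IV in replicate 1 and 0.825 times in replicate 2. Divided by the cover, the shared share of V was 1.47 in replicate 1, against 1.53 to 1.67 on the single other autosomes, and 1.70 in replicate 2, against 1.76 to 1.95. The part of the density in the difference in sharing was not tested.

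Sharing fell with rank on V as on the other autosomes. Among the 100 best nuclear regions of replicate 1, 8 of the 14 on V were shared (57.1%, 95% exact interval 28.9 to 82.3), against 39 of 61 on I to IV (63.9%). At ranks 501 to 1000 it was 12 of 80 on V (15%), against 22.8% on I to IV, and at ranks 1001 to 2000 it was 17.7%, against 18.6%. Beyond rank 10000 it was 379 of 3921 (9.67%), against 12.33% on I to IV. Among the 100 best of replicate 2, 5 of the 11 on V were shared (45.5%, 16.7 to 76.6), against 37 of 57 on I to IV (64.9%). At ranks 501 to 1000 the share was 32.8% on V, against 34.1% on I to IV, and at ranks 1001 to 2000 it was 18.0%, against 25.9%. Beyond rank 10000 it was 17.1% on V, against 19.6%. V was below I to IV in all 7 rank classes of both replicates, and the intervals overlapped except beyond rank 10000 in replicate 1. When the lists were cut to their 1000 best regions, the difference did not pass, with 8.86% on V against 10.7% on I to IV in replicate 1 (Fisher's exact test, adjusted p = 0.640) and 9.21% on V against 10.5% on I to IV in replicate 2 (Fisher's exact test, adjusted p = 0.767).

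**Figure D4:**
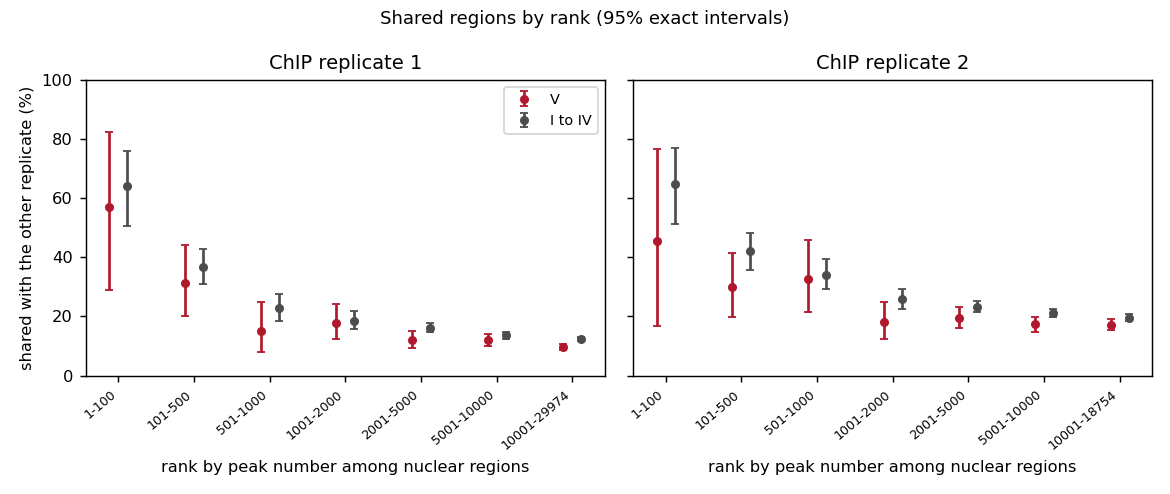
Share of regions that meet a region of the other replicate, by rank of the region among nuclear regions, for chromosome V (red) and I to IV (grey), in ChIP replicate 1 (left) and ChIP replicate 2 (right). Bars are 95% exact intervals. The red point lies below the grey one in all 7 classes of both replicates, and the shares decline from 57.1% and 45.5% on V among the 100 best to 9.67% and 17.1% beyond rank 10000.

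Within V, shared regions stood somewhat higher in the lists than the others. In replicate 1 the median score was 0.274 for the 632 shared regions, against 0.222 for the 5143 that were not shared, and 3.96% of the shared regions, against 0.719% of the others, were at the ceiling. In replicate 2 the medians were 0.952 for shared regions and 0.866 for the others, and 11.3% of shared against 6.58% of other regions were at the ceiling. Across the 597 matched pairs of V the numbers of the replicates were hardly related (Spearman's rho 0.109 across pairs, a description, since chance meetings are among them). By part of the chromosome, 12.5% of central regions were shared in replicate 1 (95% exact interval 10.98 to 14.0), against 10.2% in the left and 10.3% in the right, and in replicate 2 19.2% (17.0 to 21.6), against 17.3% and 18.0%. These intervals overlap.

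Fewer regions of V than of I to IV were at the score ceiling in replicate 2, and in replicate 1 the same direction did not pass. In replicate 2 256 of 3440 regions on V were at the ceiling (7.44%, 95% exact interval 6.59 to 8.37), against 1103 of 11966 on I to IV (9.22%), with 8.9% over all 6 nuclear chromosomes (Fisher's exact test, adjusted p = 0.00281). In replicate 1 62 of 5775 were (1.07%, 0.824 to 1.37), against 252 of 19224 (1.31%), with 1.29% over all 6 (Fisher's exact test, adjusted p = 0.203). As with sharing, the test treats neighbouring regions as independent, which they are not, so its p is too small. V was below each of the others in replicate 2, where they ran from 8.34% on IV to 10.6% on III, but above IV, at 1.04%, in replicate 1. With regions merged within 1000 bp the difference in replicate 1 passed too, at 1.43% on V against 2.02% on I to IV (Fisher's exact test, adjusted p = 0.0238). A merged locus takes the highest score of its regions. On V 2692 of the 3923 loci of replicate 1 were single regions, a larger share than on each of I to IV. The merged setting therefore cannot separate scores from the clustering of regions. Whether the difference itself differs between the replicates was not tested. Ceiling regions were most frequent in the central part of V, at 9.04% in replicate 2 (7.49 to 10.8), against 6.50% in the left (5.12 to 8.11) and 6.64% in the right (5.25 to 8.26), and these intervals overlap. On I to IV the corresponding shares were 10.4% in the centre, 7.92% in the left and 9.27% in the right. In replicate 1 they were 1.36% in the centre of V, 0.969% in the left and 0.911% in the right, also with overlapping intervals.

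**Figure D5:**
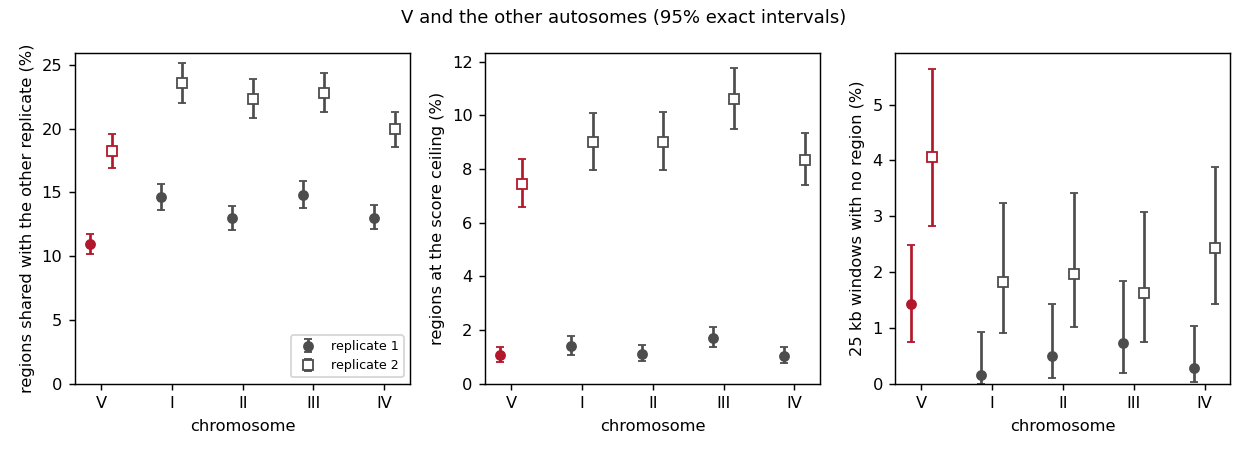
Share of regions shared with the other replicate (left), share of regions at the score ceiling (middle) and share of 25 kb windows without a region (right) for chromosome V (red) and each other autosome (grey), with 95% exact intervals. Filled circles are ChIP replicate 1 and open squares ChIP replicate 2. V is lowest in the left panel and highest in the right panel in both replicates, and in the middle panel it is lowest in replicate 2 alone.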

How the data were processed

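Per the method field of the deposited files, the authors called regions with SPP followed by IDR, a filter on the agreement of ranks between replicates. Coordinates are of WormBase WS220 per the file headers. Replicate lists were called per sample. Aligner, versions, thresholds and the making of the combined list are not stated in any source at hand. The list of replicate 1 holds exactly 30000 regions, and whether it was cut at that count is also not stated. The authors deposited a score per region, whose scale is likewise unstated, and it was used only to describe regions and to find ties at the maximum. The 26 and 29 mitochondrial regions of replicates 1 and 2 were left out.

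Overlaps, parts and bins of the span, and full 25 kb windows from the first called base were computed with Python 3.11.15, numpy 2.4.6, pandas 2.3.3, scipy 1.17.1 and matplotlib 3.10.9, with code tested on simulated data. V was set against I to IV by two-sided Fisher's exact tests of 4 measures in 2 replicates, with Benjamini-Hochberg adjustment over the 8 tests at 0.05. All of these tests treat regions or windows as independent, which neighbouring ones are not. For each alternative setting, its p replaced that of its own result among the 8, the others being kept from the main setting. The number of alternatives tried was not adjusted for. Intervals are Clopper-Pearson at 95% and reflect counting error alone. Named were all combined regions, the 5 lowest numbers per replicate, the 5 best pairs outside the combined list, the 3 densest windows and the 3 longest empty stretches. Members, measures and this rule were chosen with earlier results of these data known. The limit for dense windows, the bins, the rank classes, the places with several ceiling regions and the counting of empty runs were chosen after seeing the values. Genes and sequences at the regions were not analysed here.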

Additional observations from a re-analysis of the deposited data

How the results depend on the processing

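Of 66 alternatives over 9 results, 54 were counted as unchanged. Among these are the 4 for the combined share of V, which was not tested and has no call. Their values lay inside the interval of the main setting (8.20 to 24.2%), but under 3 of them the reading against the span share changed, as given below. The other unchanged alternatives kept direction and call. Differences are V minus I to IV in percentage points. The shared share, at -2.90 in replicate 1 and -3.86 in replicate 2, lost its call among the 1000 best regions (-1.81 and -1.28) and, in replicate 2, among the 5000 best (-2.36); fewer regions were tested there. The central share, without a call at 0.326 and 1.57, passed in replicate 1 with the 5000 best (3.76) and in replicate 2 without chromosome I in the comparison (2.28). It turned direction in replicate 1 with the middle 50% as centre (-0.0878) and without chromosome III (-0.0204), and in replicate 2 with the 1000 best (-1.39), none with a call. The ceiling share of replicate 1, -0.237, passed as share of the 1000 best regions (-0.676) and after merging within 1000 bp (-0.594), where a locus takes its highest score. The empty window share, at 1.03 and 2.08, lost its call when runs were counted once (0.158 and 0.798). The causes were not tested. The 4 alternatives for the combined share of V (14.9%) gave 11.8 to 17.7%. Under 3 of them the upper limit (27.1, 27.9 and 27.5%) passed the span share of 25.4%, and after merging (23.6%) it did not. Leaving out 1 replicate ends the sharing comparison, and the other measures are given for each replicate alone. No paired analysis was possible because neither input was analysed here and the ChIP samples form a single group. Scores tie at the ceiling and read depth is unknown, which limits any order among the best regions.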

Other observations

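A place on V outside the combined list, picked after its values were seen, carried 3 separate sites shared by both replicates within 6.75 kb. At V:6224336-6224950 both replicates were at the ceiling. At the right-hand site, replicate 1 was at the ceiling at V:6227337-6227740 as number 85, and replicate 2 scored 2.43 at V:6227455-6227934. At the left-hand site the order was turned, with replicate 2 at the ceiling at V:6221393-6221872 as number 150 and replicate 1 at 1.09 at V:6221582-6221985. No site of this place overlaps a combined region.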
